A study of Mus musculus with 199 samples.

Results

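Transcriptomes of 10 cells each of mouse small-cell lung cancer were used here to follow 10 genes for non-canonical histones and high mobility group proteins, chosen by symbol from the 31581 genes of the count table: H2afz, H2afv, H2afx, H3f3a, H3f3b, Hmgb1, Hmgb2, Hmgn1, Hmgn2 and Hmga1. The table held 199 libraries, and the 10 genes were picked with their levels in these libraries already known, so that their levels and differences between groups are given as a description. Together they made up 1.00% ± 0.156 (SD, n = 28) of gene counts in captures from KP1 spheroids, 0.559% ± 0.181 (SD, n = 33) in captures from liver colonies of nude mice, 0.819% ± 0.203 (SD, n = 31) in captures from liver colonies of F1 mice and 0.842% ± 0.129 (SD, n = 24) in captures from RPC spheroids. Among the captures the share was thus highest in cultured KP1 cells and lowest in the same cells growing in nude liver; the bulk library of KP1, made by another protocol, had 0.399%.

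KP1 is a single explanted tumour line of genotype Rb1-/-Trp53-/-, grown as spheroids or as colonies in the liver of nude mice, which lack T cells, or of F1 mice; the series' design text names immunocompromised and immunocompetent hosts. RPC are explanted cells from a stage before overt carcinoma, of genotype Rb1-/-Trp53-/-p130-/+Crebbp-/-, grown as spheroids. All 4 capture groups thus lacked Rb1 and Trp53, and each came from 1 line, so that line and genotype cannot be told apart. Each capture held 10 cells cut by laser from 8 µm frozen sections, and pool-and-split controls, in which pooled material is divided into 10-cell equivalents, were made for KP1 spheroids (20 libraries), nude liver (35) and F1 liver (24). Bulk libraries, 1 for each line, were made by another protocol from 500 ng of RNA of KP1, of KP2 (Rb1-/-Trp53-/-Ptch1+/lacz), of KP3 (Rb1-/-Trp53-/-Axin2+/lacz) and of KP5 (Rb1-/-Trp53-/- BAT-GAL).

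H2A.Z, encoded by H2afz and H2afv, and H3.3, encoded by H3f3a and H3f3b, are histones that are made throughout the cell cycle and placed into chromatin outside DNA replication, H2A.Z mostly at promoters and H3.3 at active genes. H2A.X, the product of H2afx, is the form of H2A that is phosphorylated around DNA breaks. Hmgb1 and Hmgb2 encode DNA-bending proteins, Hmgn1 and Hmgn2 encode proteins that bind nucleosomes and counter compaction by linker histone, and Hmga1 encodes an AT-hook protein of undifferentiated and tumour cells.

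Gene counts per library ran from 718208 to 5432858 in the 3 KP1 capture groups, from 3485529 to 7557773 in RPC captures, from 956772 to 5830589 in the pools and from 17266200 to 42447973 in bulk. Levels are given as CPM, each gene's counts scaled to the gene total of its library without spike-ins. Libraries were not uniform within groups: 9 of 28 spheroid captures held at least 0.1% of counts from the ERCC spike-ins and 19 held less. Further, 25 of 31 F1 captures carried the ribosomal pseudogene Rpl19-ps11 above 200 CPM and 6 did not, and 17 of 24 F1 pools held over 10% spike-in counts. Hepatocyte markers, 14 genes, summed to between 0 and 83.6 CPM in spheroid captures (median 1.11), where 10 of them, Alb and Apoa1 among these, had no count. The 14 genes summed to between 33.4 and 4734 CPM in nude captures (median 896) and to between 0 and 2150 CPM in F1 captures (median 186). Erythrocyte markers, 5 genes, had medians of 0, 551 and 1622 CPM in the same order. Myeloid markers, 9 genes, had medians of 13.6, 38.1 and 50.1 CPM, and endothelial and stellate cell markers, 8 genes, medians of 0.236, 30.8 and 7.22 CPM. The defining neuroendocrine markers, 9 genes that include Chga and Chgb, were present in every capture group, with summed medians of 2024 CPM in spheroids, 1328 in nude liver, 1515 in F1 liver and 1269.9 in RPC. In captures of several cells, fewer cells of a type and less RNA per cell cannot be told apart.

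RefSeq start sites on GRCm38.p6 were matched for 9 of the 10 genes, all but H2afx. The 250 bases before the start are shown for the H2A.Z pair and Hmgn2, which were lower together in nude liver, and for Hmgb2, which was not. Capitals mark the CCAAT box (CCAAT, or ATTGG on the other strand) and the cell cycle homology element (TTTGAA, or TTCAAA on the other strand).
H2afz: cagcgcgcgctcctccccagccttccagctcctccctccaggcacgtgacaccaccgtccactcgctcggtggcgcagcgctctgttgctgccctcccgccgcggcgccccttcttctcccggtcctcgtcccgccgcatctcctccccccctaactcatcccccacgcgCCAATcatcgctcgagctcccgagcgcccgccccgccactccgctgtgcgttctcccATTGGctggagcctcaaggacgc
H2afv: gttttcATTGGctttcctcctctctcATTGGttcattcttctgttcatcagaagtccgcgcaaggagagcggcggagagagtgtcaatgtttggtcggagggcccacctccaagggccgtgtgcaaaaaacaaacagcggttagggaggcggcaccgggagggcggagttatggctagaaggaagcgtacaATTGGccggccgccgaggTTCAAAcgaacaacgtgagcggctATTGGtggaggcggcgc
Hmgn2: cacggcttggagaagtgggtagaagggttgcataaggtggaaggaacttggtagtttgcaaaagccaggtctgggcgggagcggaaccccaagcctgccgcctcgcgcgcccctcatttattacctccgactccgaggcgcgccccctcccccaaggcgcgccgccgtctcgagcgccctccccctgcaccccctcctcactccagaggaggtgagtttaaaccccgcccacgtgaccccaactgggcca
Hmgb2: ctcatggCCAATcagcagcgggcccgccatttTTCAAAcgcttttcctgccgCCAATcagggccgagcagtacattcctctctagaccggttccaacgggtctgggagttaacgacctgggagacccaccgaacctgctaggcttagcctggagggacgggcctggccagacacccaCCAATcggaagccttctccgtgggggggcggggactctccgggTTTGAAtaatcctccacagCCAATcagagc
The windows lie at chr3:137864237-137864486 on the plus strand for H2afz, at chr11:6444444-6444693 on the minus strand for H2afv, at chr4:133967992-133968241 on the minus strand for Hmgn2 and at chr8:57511593-57511842 on the plus strand for Hmgb2. Counted back from the start site, the CCAAT boxes of H2afz began at positions -80 and -23, and those of H2afv at -244, -224, -59 and -17, with a TTTGAA element at -41. Hmgb2 had boxes at -243, -198, -73 and -11 and TTTGAA elements at -218 and -30, whereas the Hmgn2 window held neither and has no capitals. Hmgn2 and H2afz each held an E-box, CACGTG, printed in lower case, at -21 and at -208. Of all 32851 RefSeq promoter windows of this length, 33.85% held a CCAAT box, 10.09% held 2 or more, 2.791% held 3 or more, 15.99% held TTTGAA and 6.021% held CACGTG. Besides these, 4 CCAAT boxes were found before H3f3b, 3 before the first Hmgb1 start, 2 before Hmgn1 and 1 before H3f3a, and none before Hmga1. The E2F motifs TTTGGCGC (0.417% of windows) and TTTCCCGC (0.8949%), searched on both strands, were in none of the members' windows.

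H2afz (ENSMUSG00000037894, chr3:137864487-137866922, plus strand) gives the major H2A.Z protein. Its level in spheroid captures ran from 835 to 4852 CPM with a median of 2906, in nude captures from 36.1 to 2432 CPM with a median of 1194, in F1 captures from 1334 to 4374 CPM with a median of 2383 and in RPC captures from 419 to 2258 CPM with a median of 1276. All 33 nude captures lay below the spheroid median and 9 lay below every spheroid capture, whereas all 31 F1 captures lay above the nude median and 14 lay above every nude capture. Spheroid and F1 captures overlapped almost wholly, with 22 of 31 F1 captures under the spheroid median. The fitted difference, a log2 fold from edgeR after scaling of library sizes by the trimmed mean of M values (TMM), was -1.60 (SE 0.18) in nude against spheroid, 0.13 (SE 0.16) in F1 against spheroid and 1.74 (SE 0.19) in F1 against nude. H2afz was thus 3.02-fold lower in nude liver than in spheroids and 3.35-fold higher in F1 liver than in nude liver. RPC captures differed from KP1 spheroids by -1.39 (SE 0.16), with all 24 below the spheroid median. The comparisons with spheroids share the same spheroid captures. The pools gave the same order: 31 of 35 nude pools lay below every spheroid pool, and medians were 3669 CPM in spheroid, 1024 in nude and 2360.5 in F1 pools. On the CPM scale 22 of 24 F1 pools lay below the spheroid pool median and 8 below every spheroid pool. The fitted difference of F1 from spheroid pools, after TMM scaling, was 0.004 (SE 0.20). Within the spheroid sets the nude difference was -1.51 with the 19 low spike-in captures and -1.77 with the 9 others. A difference is called where the edgeR p, adjusted over all genes tested, is under 0.05; H2afz kept its sign and its call in nude against spheroid and in F1 against nude under every alternative that was run for it. The single lowest capture, replicate 30 of nude liver with 36.1 CPM, was also the shallowest with 718208 counts and had 36.2 CPM of summed neuroendocrine and 1279 CPM of summed hepatocyte markers.

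**Figure D1:**
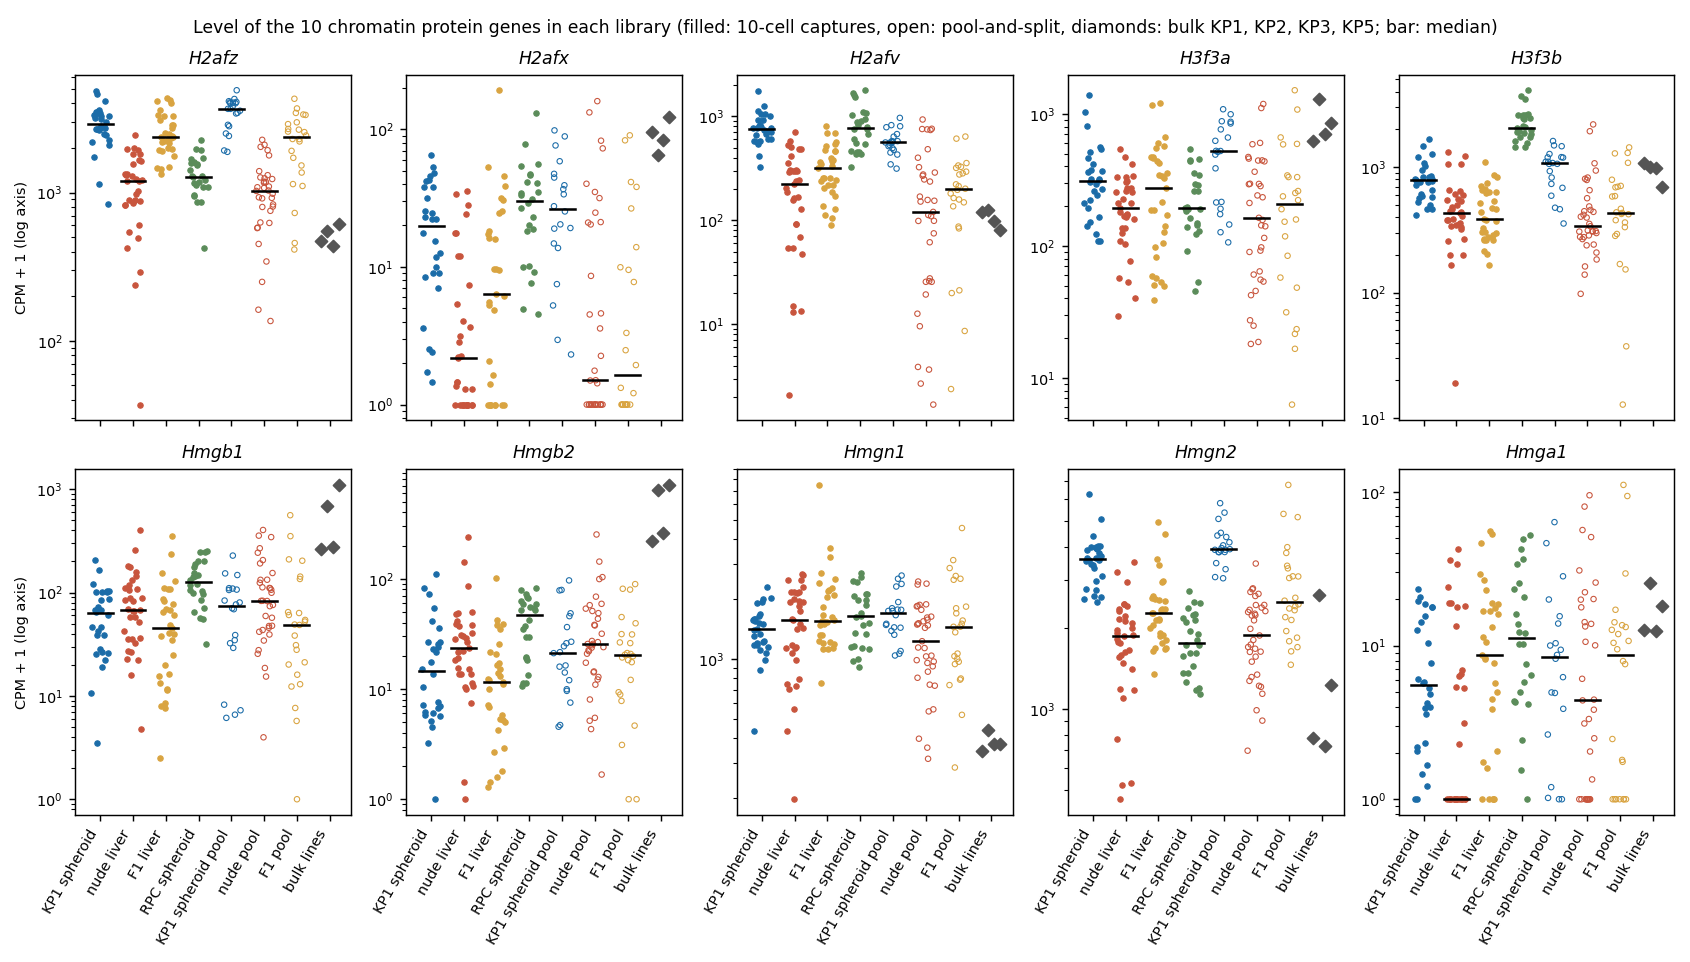
CPM + 1 on a log axis for each of the 10 genes, 1 panel per gene, with 1 point per library in 7 groups and the 4 bulk lines as diamonds, and a bar at each group median. H2afz, H2afv and Hmgn2 sit lower in nude liver than in KP1 spheroids, with medians of 1194, 225 and 1864 CPM against 2906, 753 and 3598 CPM, and H3f3b sits highest in RPC.

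H2afv (ENSMUSG00000041126, chr11:6427229-6444443, minus strand), the gene of the second H2A.Z protein, ran from 322 to 1745 CPM in spheroid captures with a median of 753, from 1.09 to 704 CPM in nude with a median of 225, from 90.1 to 809 CPM in F1 with a median of 319 and from 326 to 1781 CPM in RPC with a median of 772. It was low in both liver groups: 25 of 33 nude captures and 16 of 31 F1 captures lay below every spheroid capture, while RPC and KP1 spheroids overlapped. The fitted level was 4.01-fold lower (SE 0.29 on the log2 scale) in nude than in spheroid captures and 2.09-fold lower (SE 0.19) in F1 captures, and the log2 difference of RPC from KP1 spheroids was -0.08 (SE 0.22). In F1 against nude captures it was 0.96 (SE 0.29) higher on the log2 scale, at 0.99 in the 25 F1 captures with Rpl19-ps11 above 200 CPM and at 0.88, not past the threshold, in the 6 others. Both H2A.Z genes were therefore lower in nude liver. In F1 captures H2afv was low, while H2afz was near its spheroid level by the fit. H2afz made up 77.4% ± 8.66 (SD, n = 28) of the pair's CPM in spheroid captures, 83.0% ± 8.70 (SD, n = 33) in nude, 88.0% ± 6.10 (SD, n = 31) in F1 and 61.4% ± 15.0 (SD, n = 24) in RPC captures. In the pools the shares were 84.9% ± 6.00 (SD, n = 20) in spheroid, 83.8% ± 15.7 (SD, n = 35) in nude and 89.8% ± 7.69 (SD, n = 24) in F1, so that the higher share in nude than in spheroid captures was not seen there. A single RPC capture, replicate 13, stood apart with a share of 19.1%, from 419 CPM of H2afz and 1781 CPM of H2afv. In the pools H2afv was spread widely in nude liver, from 0.692 to 932 CPM around a median of 120, and its pool difference of -1.16 (SE 0.44) lost its call in 4 of the alternatives, among them the 14 low spike-in spheroid pools (-1.04) and the fit with a cell cycle score (-0.58).

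H2afx (ENSMUSG00000049932, chr9:44334694-44336077, plus strand), a single-exon gene, was counted in all 28 spheroid and all 24 RPC captures but in only 22 of 33 nude and 23 of 31 F1 captures. Medians were 18.9 CPM in spheroid, 1.18 in nude, 5.35 in F1 and 29.1 in RPC captures, with highest values of 64.1, 34.8, 191 and 130 CPM. The groups overlapped, with 15 of 33 nude captures below every spheroid capture. The fitted log2 difference in nude against spheroid was -2.02 (SE 0.61). It was -1.75 with the high spike-in spheroids, -1.54 with a hepatocyte score as covariate and -1.003 with a cell cycle score, and passed the threshold in none of these 3 fits, whereas the low spike-in spheroids gave -2.12 and kept the call. In F1 against nude captures it was 2.03 (SE 0.72) and lost its call in 6 of 12 alternatives, among them each F1 set alone (1.32 in the 25 captures with Rpl19-ps11 above 200 CPM and 3.48 in the 6 others). Against spheroids the same sets gave -0.66 and 1.36, neither past the threshold.

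The H3.3 genes H3f3a (ENSMUSG00000060743, chr1:180800832-180813943, minus strand) and H3f3b (ENSMUSG00000016559, chr11:116021912-116027962, minus strand) encode the same protein. H3f3b ran from 412 to 1667 CPM in spheroid captures with a median of 781, from 18.1 to 1321 CPM in nude with a median of 432, from 166 to 1091 CPM in F1 with a median of 388 and from 1444 to 4094 CPM in RPC with a median of 2066. All 24 RPC captures lay above the KP1 spheroid median and 20 lay above every KP1 spheroid capture. The fitted log2 difference of H3f3b was 1.30 (SE 0.17), or 2.46-fold higher, in RPC, and -0.82 (SE 0.21) in nude and -0.55 (SE 0.18) in F1, each against KP1 spheroids. The F1 difference lost its call in 7 of 14 alternatives, among them both spike-in sets (-0.56 with the low and -0.45 with the high) and both F1 sets (-0.50 and -0.47). H3f3a differed in the other direction, with a median of 309 CPM (108 to 1383) in KP1 spheroids and 191 CPM (44.7 to 540.3) in RPC, a log2 difference of -0.998 (SE 0.23), although the ranges overlapped and the 9 high spike-in spheroids gave -0.63, which did not pass, against -1.11 with the 19 others. The balance of the pair thus differed: H3f3b made up 70.4% ± 10.9 (SD, n = 28) of H3.3 CPM in KP1 spheroid captures, 68.2% ± 13.4 (SD, n = 33) in nude, 63.2% ± 18.8 (SD, n = 31) in F1 and 90.7% ± 3.99 (SD, n = 24) in RPC captures. The lowest RPC share was 81.6% and the highest KP1 spheroid share 87.2%. Bulk shares, from the other protocol, were 63.6% in KP1, 43.9% in KP2, 58.3% in KP3 and 44.8% in KP5. In nude captures H3f3a had a median of 192 CPM and a log2 difference from spheroids of -0.95 (SE 0.24). For both H3.3 genes the call in nude against spheroid was lost with the high spike-in spheroids (H3f3a -0.61, H3f3b -0.83) and with the hepatocyte score (-0.83 and -0.95), and kept with the low spike-in spheroids (-1.10 and -0.85). In F1 against nude captures H3f3a was 0.90 (SE 0.26) higher, at 0.59, not past the threshold, in the 25 F1 captures with Rpl19-ps11 above 200 CPM and at 1.86 in the 6 others. H3f3a shares exon bases with the opposite-strand genes H3f3aos and Gm17275, and whether counting used strand is not given in the sources used here.

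**Figure D2:**
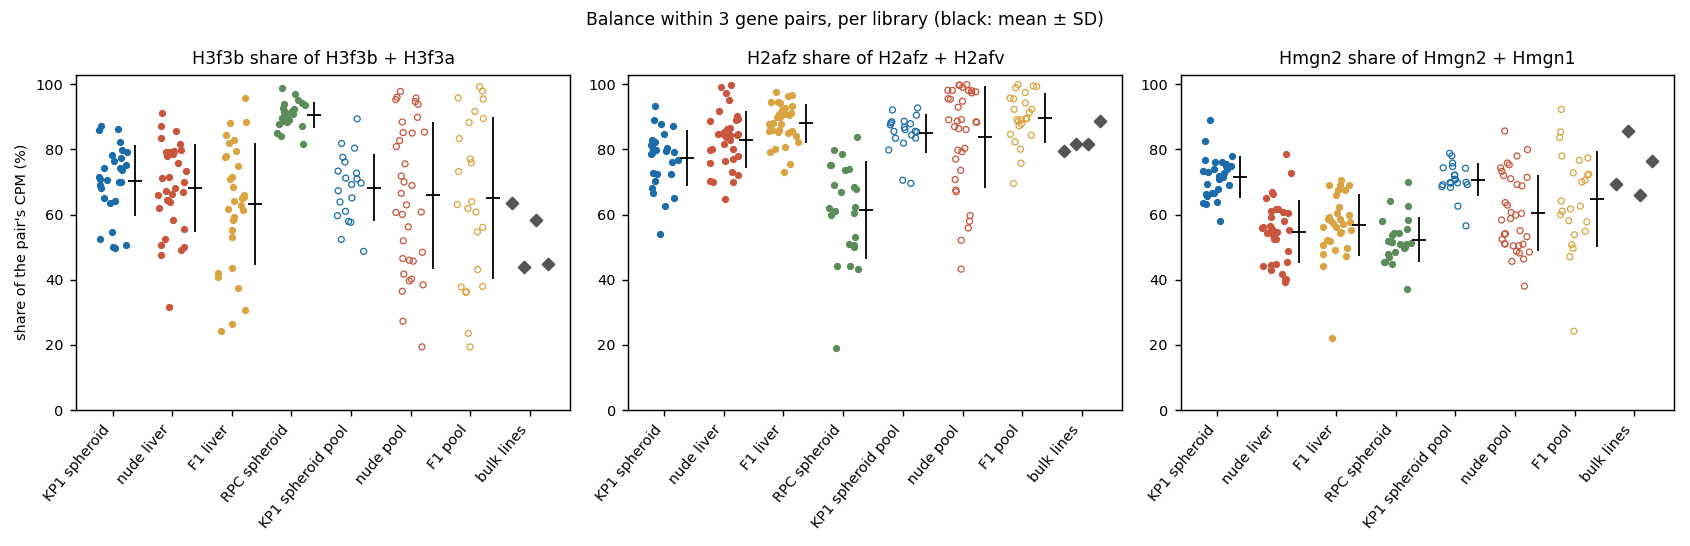
Share of H3f3b in H3f3a + H3f3b, of H2afz in H2afz + H2afv and of Hmgn2 in Hmgn1 + Hmgn2, in percent of the pair's CPM, with 1 point per library and the mean ± SD of each group in black. RPC captures gather at 90.7% H3f3b, against 70.4% in KP1 spheroid captures, and Hmgn2 holds 71.6% in KP1 spheroid captures and between 52.3% and 56.8% in the other 3 capture groups.

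Hmgn2 (ENSMUSG00000003038, chr4:133964738-133968650, minus strand) had a median of 3598 CPM in spheroid captures (2495 to 6270.3), 1864 in nude (460.0 to 3506), 2266 in F1 (1348 to 4953) and 1761 in RPC (1133 to 2739.5). Most libraries of the other groups lay below every KP1 spheroid library of their kind: 30 of 33 nude captures, 34 of 35 nude pools and 23 of 24 RPC captures. For H2afv this held for 25 of 33 nude captures and 27 of 35 nude pools. The fitted log2 difference was -1.21 (SE 0.15), or 2.31-fold lower, in nude and -1.14 (SE 0.18), or 2.20-fold lower, in RPC, each against KP1 spheroids. In F1 captures 20 of 31 lay below every spheroid capture on the CPM scale, yet the fitted difference was -0.28 (SE 0.16) and did not pass. The value depended on the F1 set: the 25 F1 captures with Rpl19-ps11 above 200 CPM gave -0.10 and the 6 others -0.85, past the threshold, against spheroids, and with a cell cycle score it was -0.67, past the threshold. Against nude captures F1 Hmgn2 was 0.94 (SE 0.17) higher on the log2 scale, at 1.08 in the 25 and 0.43, no longer past the threshold, in the 6.

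Hmgn1 (ENSMUSG00000040681, chr16:96120618-96127729, minus strand) had medians within a narrower band. They were 1408 CPM in spheroid (432 to 2307), 1568 in nude (196 to 2673), 1548 in F1 (756 to 7508) and 1635 in RPC captures (911 to 2708), and the ranges overlapped. The log2 difference from spheroids was -0.07 (SE 0.16) in nude and 0.19 (SE 0.19) in RPC, with Hmgn2 at -1.21 and -1.14 in the same fits. In F1 captures Hmgn1 was 0.84 (SE 0.20) higher than in spheroids and 0.95 (SE 0.21) higher than in nude liver, but both rested on the Rpl19-ps11 set: in the 25 F1 captures above 200 CPM the values were 1.09 and 1.13, and in the 6 others 0.01 and 0.15. Before scaling by TMM, F1 and nude captures did not separate on the CPM scale, with 15 of 31 F1 captures above and 16 below the nude median. With the cell cycle score as covariate the first was 0.16, and with the high spike-in spheroids 0.74, neither past the threshold. Hmgn2 accordingly took 71.6% ± 6.40 (SD, n = 28) of the pair's CPM in spheroid captures, 54.8% ± 9.61 (SD, n = 33) in nude, 56.8% ± 9.61 (SD, n = 31) in F1 and 52.3% ± 6.94 (SD, n = 24) in RPC captures. In the pools the shares were 70.8% ± 5.00 (SD, n = 20) in spheroid, 60.5% ± 11.8 (SD, n = 35) in nude and 64.9% ± 14.7 (SD, n = 24) in F1.

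The remaining members, Hmgb1, Hmgb2 and Hmga1, were thinly counted in captures. Hmgb1 (ENSMUSG00000066551, chr5:149046702-149184489, minus strand) had medians of 61.8 CPM in spheroid (2.50 to 207), 67.2 in nude (3.82 to 403), 44.1 in F1 (1.53 to 353) and 126 in RPC captures (30.8 to 251). RPC stood highest, with 21 of 24 captures above the KP1 spheroid median and a log2 difference of 0.83 (SE 0.28), which passed the threshold with all spheroid captures but with neither spike-in set alone (0.79 and 0.91). Hmgb2 (ENSMUSG00000054717, chr8:57511907-57515999, plus strand), a gene of dividing cells, had medians of 13.4, 22.6, 10.7 and 46.0 CPM in the same order and overlapped in all comparisons. Its median was not lower in nude liver than in spheroids (log2 difference 0.52, SE 0.45), where H2afz, H2afv and Hmgn2 were, and its difference was 1.78 and passed the threshold once the cell cycle score was held constant. In RPC against KP1 spheroids it was 0.65 (SE 0.40), at 0.35 with the low and at 1.64, past the threshold, with the high spike-in spheroids. Hmga1 (ENSMUSG00000046711, chr17:27556620-27563674, plus strand) was counted in 26 of 28 spheroid, 16 of 33 nude, 26 of 31 F1 and 23 of 24 RPC captures, with medians of 4.50, 0, 7.63 and 10.2 CPM.

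Counted over the list, 6 of 10 members were lower and 0 higher in nude than in spheroid captures at an adjusted p under 0.05, where 34.1% of all 7834 genes tested were called, 17.7% higher and 16.3% lower. The members' median log2 difference was -0.89, against -0.04 for all genes tested. In F1 against spheroid captures 1 member was higher (Hmgn1) and 2 lower (H2afv, H3f3b), with 12.6% of genes called, 7.73% higher and 4.91% lower, and the members' median was -0.03 against 0.22 for all genes. F1 against nude captures gave 6 higher (H2afz, H2afx, H2afv, H3f3a, Hmgn1, Hmgn2) and 0 lower, with 19.2% of genes called, 11.2% higher and 7.98% lower, and medians of 0.95 and 0.26. RPC against KP1 spheroids gave 2 higher (H3f3b, Hmgb1) and 3 lower (H2afz, H3f3a, Hmgn2), with 21.9% called, 10.3% higher and 11.6% lower. In the pools 4 members were lower in nude than in spheroid (H2afz, H2afv, H3f3b, Hmgn2), where 25.6% of genes were called, 16.5% higher and 9.13% lower. In F1 against spheroid pools 0 members were called by edgeR, 1 by DESeq2 (H2afv) and 2 by limma-voom (H2afv, H2afx), with 11.6% of genes called, 8.94% higher and 2.65% lower. In F1 against nude pools 3 members were higher (H2afz, Hmgn1, Hmgn2) and 0 lower, with 12% of genes called, 8.2% higher and 3.79% lower. These counts describe members that were chosen on their levels and are not tests. All 10 members passed the filter on low counts in all 7 fits.

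**Figure D3:**
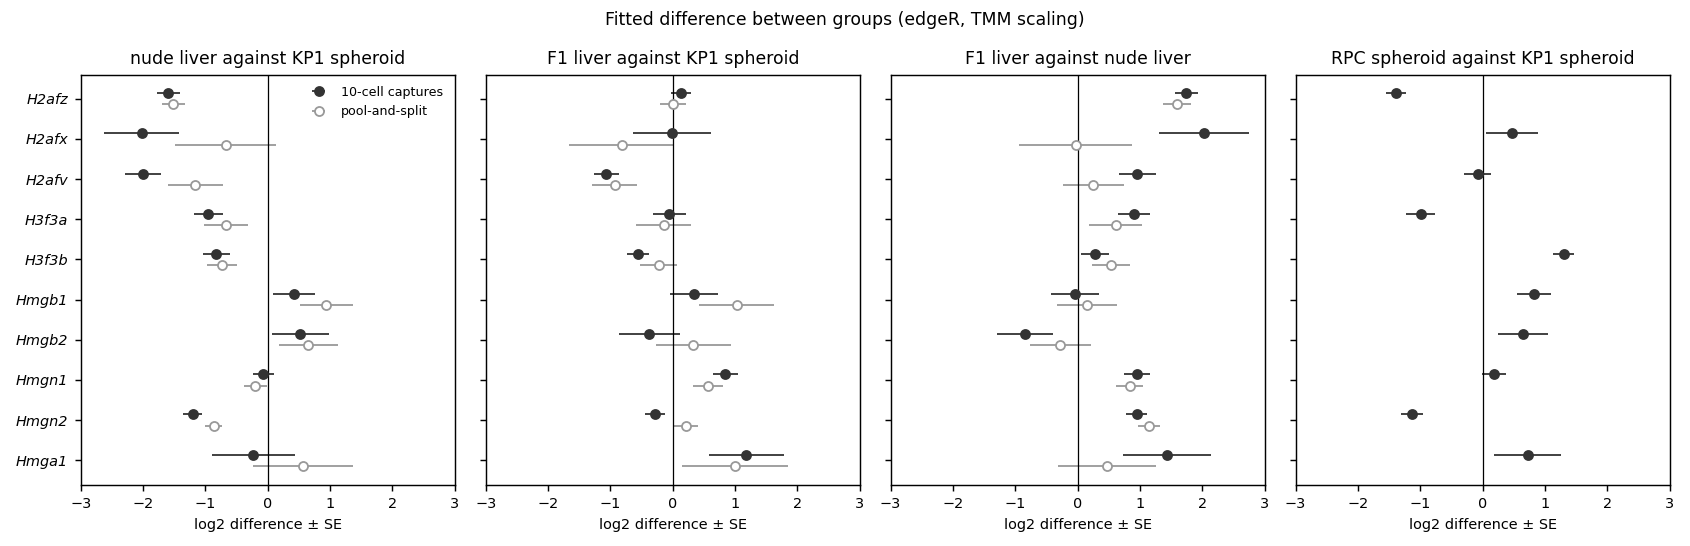
Log2 difference and its SE for the 10 genes in 4 comparisons, with captures in filled and pools in open symbols; the 3 panels against KP1 spheroid share those spheroid libraries. H2afz lies at -1.60 in nude captures and at 0.13 in F1 captures against spheroids, and H3f3b lies at 1.30 in RPC captures.

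Levels of different genes are set side by side per kilobase of merged exon, which is only a rough scale for libraries amplified from the poly(A) end. In spheroid captures H2afz had 1641 ± 500.4 CPM per kb (SD, n = 28) and Hmgn2 1179 ± 262, a gap within the SD of H2afz, and without division by length the order turned (2915 CPM for H2afz and 3608 for Hmgn2). They were followed by H2afv with 487 ± 172, Hmgn1 with 443 ± 123, H3f3b with 273 ± 102 and H3f3a with 107 ± 81.7. H2afx, Hmgb1, Hmgb2 and Hmga1 lay between 3.49 and 15.7 CPM per kb. H2afv and Hmgn1 did not differ beyond their spread, nor did neighbours among the 4 lowest genes. In nude captures H2afz (640.3 ± 321, SD, n = 33) and Hmgn2 (596 ± 234) were within each other's spread. In RPC captures H3f3b (761 ± 233, SD, n = 24) and H2afz (749.8 ± 233) were highest, with Hmgn2 (595 ± 153) within the spread of both. Without division by length the RPC means were 2264 CPM for H3f3b, 1819 for Hmgn2, 1687 for Hmgn1 and 1332 for H2afz. The order in bulk was another, where KP1 had H3f3b first (361 CPM per kb), then H2afz (263) and Hmgn2 (254). This order holds only without near-identical copies. Together with its copy Gm10182, Hmgn2 had 1565 CPM in bulk KP1 before division by length, against 1075 for H3f3b.

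The KP1 line gave different levels by the 2 protocols. Mean capture CPM exceeded bulk CPM 6.25-fold for H2afz (2915 against 467), 6.63-fold for H2afv (795 against 120), 4.63-fold for Hmgn2 (3608 against 779) and 4.15-fold for Hmgn1 (1426 against 343). Bulk exceeded captures 9.59-fold for Hmgb2 (219 against 22.8), 4.34-fold for H2afx (94.1 against 21.7) and 3.97-fold for Hmgb1 (263 against 66.3). H3f3a, H3f3b and Hmga1 differed by at most 1.64-fold. For Hmgn2 the fold rests on how reads are split with its near-identical copy Gm10182: their joint level was 4564 CPM in captures and 1565 in bulk. Levels from captures and from bulk are therefore kept apart here.

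Across the bulk lines, with 1 library each, Hmgb1, Hmgn2 and Hmgb2 varied most. Hmgb1 had 263 CPM in KP1, 684 in KP2, 274 in KP3 and 1098 in KP5, a 4.17-fold range. Hmgb2 followed the same split, with 219, 632, 260.1 and 708 CPM, and Hmgn2 had 779, 2635, 726 and 1219 CPM. H2afz (438 to 613 CPM) and Hmgn1 (343 to 439 CPM) were the most even. Summed cell cycle markers, 15 genes, were 4599, 6747, 3992 and 6038 CPM in KP1, KP2, KP3 and KP5, higher in the lines with more Hmgb1 and Hmgb2; their part in these differences was not tested.

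Several members have near-identical processed copies in the genome that can take their reads. Gm10182 (chr9:22321105-22321377) matches Hmgn2 at 97.85% over 279 bases, and in bulk it received 50.3% of the joint CPM in KP1 and 50.2% in KP3 but 2.90% in KP2 and 0.854% in KP5. The joint CPM of Hmgn2 and Gm10182 was 1565 in KP1, 2713 in KP2, 1456 in KP3 and 1229.6 in KP5, so that KP5, above KP1 and KP3 by Hmgn2 alone, was the lowest of the 4 by the sum. In captures Gm10182 took a median of between 20.4% and 24.9% of the joint CPM in the 4 groups. With these copies added, Hmgn2 kept its sign and its call in nude and in RPC against KP1 spheroids. Gm8203, identical to H2afz over 387 bases, had no count in any capture or pool but 127 to 166 CPM in the bulk lines, between 20.8% and 23.0% of the joint level. Gm15387 matches Hmgb1 at 99.85% and Gm13237 matches Hmgb2 at 98.74%; adding them left KP2 and KP5 highest, at 904 and 1295 CPM for Hmgb1 and 872 and 913 CPM for Hmgb2.

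**Figure D4:**
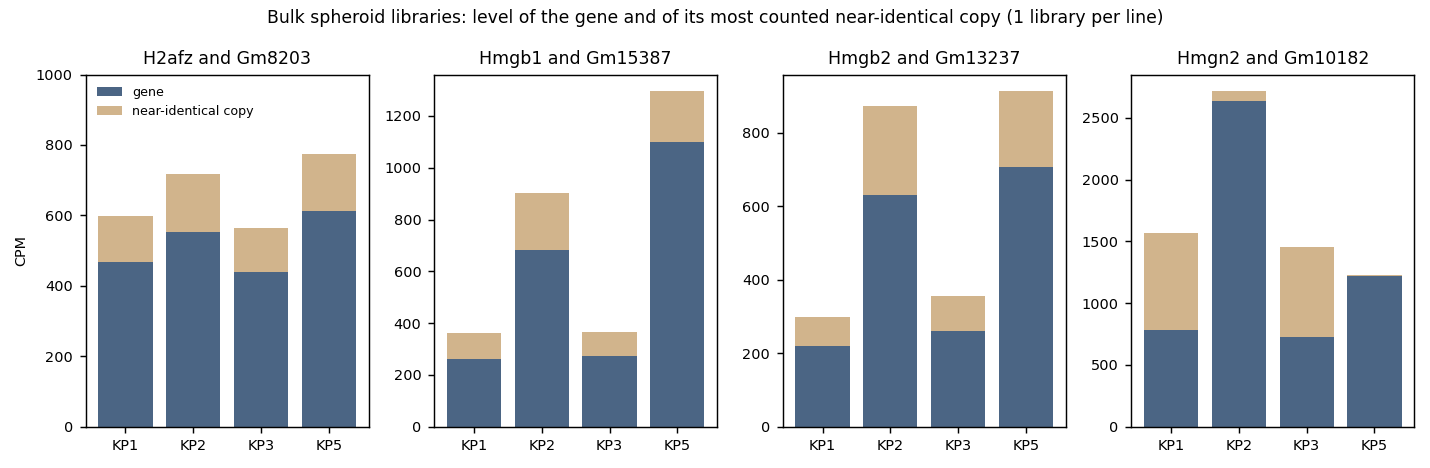
Stacked bars of CPM in the 4 bulk lines for 4 members (dark) and for their most counted near-identical copy (light), 1 library per line. For Hmgn2, the copy Gm10182 holds 50.3% of the bar in KP1 and 50.2% in KP3, and 2.90% in KP2 and 0.854% in KP5.

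Spread between captures was compared with that between pools, which carry the spread of the method without that between groups of cells; this measure was not used to choose the genes. Spread was taken as the mean distance of a library's log2(CPM + 1) from the middle value of its group. For Hmgn2 it was 0.22 in spheroid captures and 0.17 in spheroid pools, 0.49 and 0.43 in nude liver, and 0.32 and 0.45 in F1 liver. For H2afz it was 0.37 and 0.29, 0.75 and 0.66, and 0.38 and 0.66. Liver pools held more spike-in than liver captures, with medians of 13.2% against 2.16% in F1 and 5.94% against 0.969% in nude. Pools are thus not a fully matched baseline in liver. For H2afz in F1 liver captures minus pools gave -0.28, and between -0.33 and 0.14 under the alternatives. In none of the 3 environments was a member more or less spread in captures than in pools at an adjusted p under 0.05 (limma, with the Benjamini-Hochberg adjustment; 0 of 10 in each), with 0%, 0.766% (0.553% larger and 0.213% smaller in captures) and 1.48% (0.537% and 0.947%) of all genes called in spheroid, nude and F1. By limma there were 510 of 8600, 1367 of 9397 and 1558 of 8760 genes at an unadjusted p under 0.05. The member nearest to the threshold was H3f3a in nude liver, with a spread in captures minus that in pools of -0.61 (SE 0.21, limma adjusted p = 0.145). No member passed the test for a difference between environments in the excess of captures over pools (0 of 10 in each of 3 comparisons by limma; 0%, 0.504% and 0.106% of genes called), with 1153 of 9423, 1507 of 8932 and 662 of 9418 genes at an unadjusted p under 0.05. For H2afz in F1 against nude liver the difference in excess was -0.37 (SE 0.29). With standard errors of this size, small differences in spread were not detectable.

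Among individual captures, some members varied together. After subtraction of each group's mean of log2(CPM + 1), Spearman's rho over all captures of the 4 groups (n = 28, 33, 31 and 24) was 0.58 for Hmgn1 with Hmgn2 and 0.43 for H3f3a with H3f3b, against 0.25 and 0.11 over 79 pools. Of 2657 genes averaging 50 CPM or more, the one nearest to H2afz was Pcna, the DNA polymerase clamp (rho 0.53 in captures, 0.12 in pools), and the one nearest to H3f3a was Hnrnpa2b1, an RNA-binding protein (0.68 and 0.45). Hmgb2 was nearest to Rab14 (0.50) and next to Rrm2, a subunit of ribonucleotide reductase (0.47), with 0.17 and 0.09 in the pools. For H2afv the nearest gene was Ppia (0.56 and 0.17), for H2afx Phc2 (0.51 and 0.15), for H3f3b Npm1 (0.43 and 0.26), for Hmgb1 Clic1 (0.37 and 0.01) and for Hmga1 Pold2 (0.34 and 0.10). The second nearest gene to Hmgn2 was its copy Gm10182, at 0.52 in captures and 0.73 in pools. With the mean log2(CPM + 1) of 15 cell cycle markers, rho in captures was highest for H3f3a (0.54), Hmgb2 (0.53), H2afz (0.49), H2afx (0.44) and H2afv (0.39), and lowest for Hmgn1 (0.05), Hmgb1 (0.07) and Hmga1 (0.11). Over the pools it was 0.48 for H3f3a, 0.46 for Hmga1, 0.43 for H2afv, 0.41 for H2afx, 0.35 for H2afz and 0.34 for Hmgb2. Hmga1 was thus among the lowest in captures and among the highest in pools. All of these correlations share library depth and amplification, and they are descriptions without a test.

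**Figure D5:**
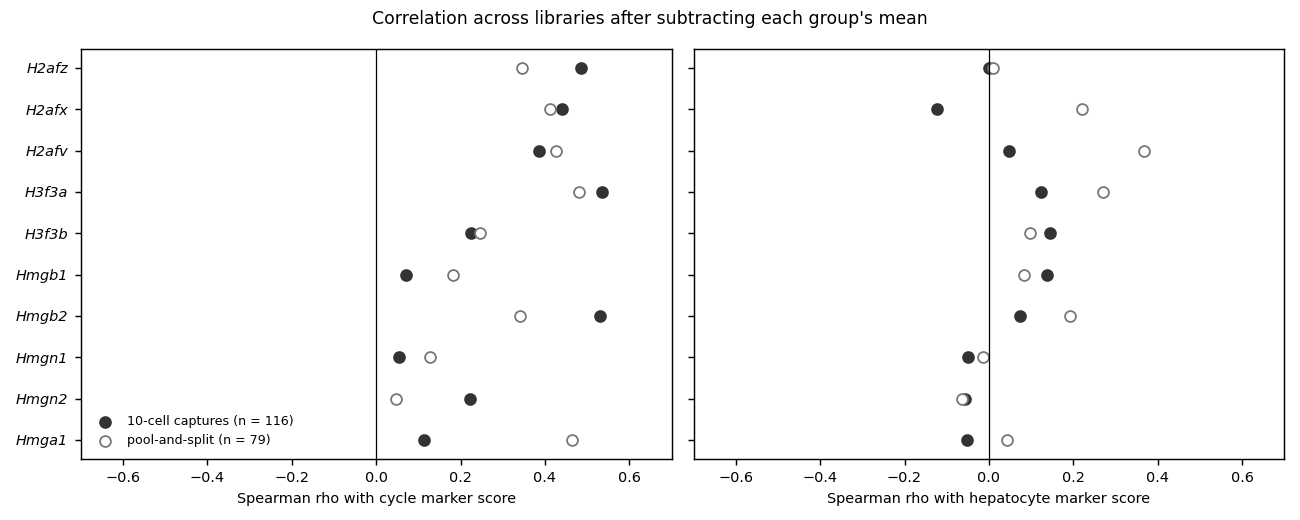
Spearman's rho of each gene with the cell cycle score (left) and the hepatocyte score (right) over all captures of the 4 groups (filled) and 79 pools (open), after subtraction of group means. With the cell cycle score all 10 genes have a positive rho, the highest in captures at 0.54 for H3f3a, and with the hepatocyte score rho in captures lies between -0.12 for H2afx and 0.14 for H3f3b.

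The machinery around these proteins was followed through lists of other genes. Of 11 tested subunits and factors that exchange H2A.Z, 4 were lower and 0 higher in nude than in spheroid captures, where 16.3% of all genes tested were called lower and 17.7% higher. Anp32e, a chaperone that removes H2A.Z, had a log2 difference of -1.90 (144 CPM in spheroid and 41.0 in nude; edgeR adjusted p = 5.83e-05), Ep400, the motor of an H2A.Z-depositing complex, -1.74 (adjusted p = 0.0044) and Ruvbl1, an ATPase of the same complexes, -1.10 (adjusted p = 0.046). In nude against spheroid pools 2 of 11 were lower and 0 higher, with 9.13% of all genes called lower and 16.5% higher. The median of the 11 was 0.04, against 0.16 for all genes tested. Anp32e was at -2.10 there (edgeR adjusted p = 0.00511), while Ep400 (0.35, adjusted p = 0.764) and Ruvbl1 (-0.75, adjusted p = 0.497) did not pass. In F1 against nude captures 4 of 10 were higher and 0 lower, with 11.2% of all genes called higher. The median of the 10 was 0.18, against 0.26 for all genes tested, so that the list as a whole did not rise. There Ep400 stood at 2.38 (105 against 27.7 CPM; edgeR adjusted p = 0.00103), Ruvbl1 at 1.51 (adjusted p = 0.0144) and Ruvbl2 at 1.43 (adjusted p = 0.0314). Of 7 tested in F1 against nude pools, 1 was higher and 0 lower, with 8.2% of all genes called higher. That gene was Ep400, by 3.22 (edgeR adjusted p = 0.00584). Anp32e was lower than in KP1 spheroids also in F1 captures, at -1.43 (edgeR adjusted p = 0.00636), and in RPC captures, at -1.04 (adjusted p = 0.00287). In F1 captures it was the 1 gene called of 11, with 4.91% of all genes called lower. In RPC captures 1 of 11 was lower and 1 higher, with 11.6% of all genes called lower and 10.3% higher. The higher gene was Brd8, by 1.15 (189 against 78.6 CPM, edgeR adjusted p = 0.021).

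Another histone variant gene, H2afy, encodes macroH2A, which is associated with silent chromatin. Its median was 124 CPM in spheroid captures (15.7 to 265), 385 in nude (12.5 to 1026), 185 in F1 (38.1 to 721) and 225 in RPC (63.0 to 570.3), with ranges that overlapped. It was higher than in KP1 spheroids by 1.66 in nude (edgeR adjusted p = 1.37e-07), 1.00 in F1 (adjusted p = 0.00505) and 0.79 in RPC captures (adjusted p = 0.00513), comparisons that share the spheroid captures, and by 1.38 in nude pools (adjusted p = 0.000189) and 1.14 in F1 pools (adjusted p = 0.00842). Its median was highest in nude captures, in which those of H2afz and H2afv were lowest. H1f0, the replacement linker histone, was higher in RPC than in KP1 spheroid captures by 1.68 (93.1 against 25.9 CPM; edgeR adjusted p = 0.00195).

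Chaperones of H3.3, 7 genes, gave 1 higher and 1 lower of 6 tested in nude captures and 1 higher of 7 tested in RPC captures, shares near those of all genes called (34.1% in nude, and 10.3% higher in RPC). These were Daxx, higher by 1.70 in nude (42.9 against 14.3 CPM; edgeR adjusted p = 0.0136) and by 1.63 in RPC (adjusted p = 0.0379), and Asf1a, lower in nude at -2.41 (adjusted p = 0.00451), all of them under 50 CPM and named after their values were seen. Of 13 general histone chaperones, 4 were higher and 1 lower in nude than in spheroid captures, near the 34.1% of all genes called. Supt16, a subunit of the FACT complex, was 2.98 higher (87.3 against 10.2 CPM; edgeR adjusted p = 0.0029), Set 1.23 higher (adjusted p = 0.0134) and Rbbp4 1.08 higher (adjusted p = 0.0345), whereas Npm1, nucleophosmin, was lower at -0.74 (adjusted p = 0.0338). Between F1 and nude captures 2 of 12 were higher in F1 and 2 lower, with 19.2% of all genes called. Supt16 was at -3.25 (8.72 against 87.3 CPM; edgeR adjusted p = 0.00239). Nasp, which handles the soluble pool of H3 and H4, was at 1.03 (edgeR adjusted p = 0.000702) and Nap1l1 at 0.74 (adjusted p = 0.0216). In F1 against spheroid captures 1 of 12 was higher and 0 lower, with 7.73% of all genes called higher. That gene was Ssrp1, by 0.73 (edgeR adjusted p = 0.0355). In F1 against nude pools 2 of 12 were higher and 0 lower, with 8.2% of all genes called higher. These were Ssrp1 by 1.24 (edgeR adjusted p = 0.0204) and Nap1l4 by 1.60 (adjusted p = 0.0243). In RPC 2 of 13 were higher than in KP1 spheroids and 1 lower, with 21.9% of all genes called. Nasp was at 0.91 (edgeR adjusted p = 0.000678) and Npm1 at -1.30 (adjusted p = 0.000127). Among 7 tested genes of the response to phosphorylated H2A.X, 3 were higher in nude than in spheroid captures and 0 lower. Of all genes, 17.7% were called higher. The 3 were the ubiquitin ligase gene Rnf168 by 2.52 (102 against 15.9 CPM, edgeR adjusted p = 2.74e-05), Mdc1 by 1.90 (adjusted p = 0.00179) and the kinase gene Baz1b by 1.12 (adjusted p = 0.000908). The median of the 7 was -0.54, against -0.04 for all genes tested, so that the list as a whole did not rise in these captures. Of 5 other HMG genes tested, among them Hmgb3 and Hmgn3, 1 was higher in nude captures, Hmg20b by 1.49 (14.4 against 4.91 CPM; edgeR adjusted p = 0.0234), a gene named after its value was seen. None of the 5 receptors of extracellular HMGB1 was counted highly enough to be tested.

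Cell cycle and neuroendocrine markers moved with several of these results, and their part in them was not tested beyond the covariate fits. In nude against spheroid captures 6 of 15 cell cycle markers were lower and 0 higher, Pcna at -2.40 (72.6 against 323 CPM; edgeR adjusted p = 4.47e-08), and 6 of 8 tested neuroendocrine markers were lower, with 16.3% of all genes called lower. In F1 against nude captures 6 of 15 cell cycle markers were higher, with 11.2% of all genes called higher, Birc5 by 1.96 (edgeR adjusted p = 0.000163). With the cell cycle score held constant, H2afz in nude against spheroid captures had a log2 difference of -1.46 and Hmgn2 of -1.17, and with the hepatocyte score held constant they had -1.85 and -0.84, all past the threshold. RPC captures, whose hepatocyte markers summed to at most 57.5 CPM, had 1 of 15 cell cycle markers higher, Mcm6 by 0.87 (edgeR adjusted p = 0.00102), and 2 lower, Pcna at -1.17 (adjusted p = 0.000194) and Tyms at -0.75 (adjusted p = 0.00589). The summed cell cycle markers had a median of 4079.7 CPM in RPC and 3605 in KP1 spheroid captures. RPC captures also had 6 of 8 neuroendocrine markers lower and 1 higher than KP1 spheroids, with 11.6% of all genes called lower and 10.3% higher.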

How the data were processed

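Poly(A) RNA of 10-cell laser captures and pool-and-split controls was amplified by poly(A)-PCR and tagmented, and bulk mRNA was selected with oligo dT, per the labels' protocols. The authors deposited estimated counts per gene; RSEM, Bowtie2, GRCm38 and GRCh38.p12 are named in the submitters' processing notes, and which step used GRCh38.p12 is not given in the sources used here. The table held 31581 gene rows and 92 ERCC rows, and 10.7% of its values had decimals. ERCC rows were left out of totals, and counts were rounded before testing.

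Levels were tested with edgeR 4.0.16 (R 4.3.3; filterByExpr, TMM, robust quasi-likelihood fit), with the Benjamini-Hochberg adjustment over all genes tested and a threshold of 0.05, and spread with limma 3.58.1 on genes averaging at least 5 CPM, with a pseudocount of 1. Both steps were run on simulated data with independent libraries. The simulation held no library sets and no shared animals, so it cannot show how these affect the results. RLE scaling, DESeq2 1.42.0, limma-voom, no filter, a replicate block, added pseudogene copies, library sets and score covariates were the alternatives. Library sets (by spike-in share and Rpl19-ps11) are defined from the files, not from the labels. Coordinates are those of GENCODE M21 on GRCm38. Copies were searched with BLAST 2.17.0 (at least 90% identity over 150 bases). Counts without molecular identifiers are not independent molecules.

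The members and gene lists were chosen with earlier results of these data known. All 10 members are described. Of the other lists, only a part of the genes that pass the threshold and average 50 CPM or more in the group with the higher level are named. At most 4 such genes are named per list and comparison, and not every comparison is covered. A further 3 genes under this level are marked as such in the text. For each member the nearest genes by Spearman's rho are given. The labels do not say which captures share an animal or culture, so p-values measure only the spread between libraries, which may be technical. The replicate numbers do not pair the groups. No pair of libraries looked like a repeat deposit of 1 library. Some items are not reported here.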

Additional observations from a re-analysis of the deposited data

How the results depend on the processing

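In captures, H2afz, H2afv and Hmgn2 in nude against spheroid, H2afv in F1 against spheroid, H2afz in F1 against nude, and H2afz, H3f3b and Hmgn2 in RPC against KP1 spheroid kept their sign and their call under all alternatives run. The number of members called in nude against spheroid captures, 6, was 3 with the high spike-in spheroids and 3 with the hepatocyte score. In F1 against spheroid captures 3 became 1 with the high spike-in spheroids, and in F1 against nude captures 6 became 2 with the F1 captures at 200 CPM Rpl19-ps11 or less. In nude against spheroid pools 4 became 2 with the cell cycle score. Calls over all genes also fell in these fits. In nude against spheroid captures they fell from 2669 to 949 with the hepatocyte score. In F1 against spheroid captures they fell from 924 to 174 with the high spike-in spheroids. For the F1 captures at 200 CPM Rpl19-ps11 or less, against nude, the fall was from 1358 to 302. With the cell cycle score in nude against spheroid pools it was from 2054 to 648. In F1 against spheroid pools 0 became 1 with RLE scaling, DESeq2, no filter, either F1 set or the libraries over 10% ERCC left out, and 2 with limma-voom. Hmgn1 in F1 against nude pools turned from 0.83 to -0.0286 with the F1 pools at 200 CPM Rpl19-ps11 or less (edgeR adjusted p = 0.968). The causes of these changes were not tested. Sets that leave out libraries have fewer samples.

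With the replicate number as a block, members called were 6 in nude against spheroid, 3 in F1 against spheroid, 4 in F1 against nude and 6 in RPC against KP1 spheroid captures, and 5, 2 and 2 in the first 3 comparisons in pools; the numbers did not pair the samples (mean correlation of same-numbered libraries between -0.01 and 0.03 over 10 pairs of groups), and no member's spread was called with or without the block. Of 313 alternative values of called members, 272 kept sign and call, 40 lost the call and 1 turned; of 516 values of members not called, 29 passed the threshold. All 339 alternative values of spread kept their call. Over all genes, 2669 were called in nude against spheroid captures and between 949 and 8431 under the alternatives, 924 and between 174 and 5072 in F1 against spheroid, 1358 and between 302 and 6294 in F1 against nude, and 1881 and between 1614 and 6115 in RPC. In pools the counts were 2054 (648 to 7888), 840 (22 to 5224) and 721 (179 to 5857), and in all 7 comparisons the highest count came with no filter on low counts. RLE scaling moved the median of all genes from 0.01 to 0.16 in RPC captures, from 0.16 to -0.06 in nude pools and from 0.46 to 0.32 in F1 pools, each against spheroids, and the share of calls that were higher from 46.9% to 57.8% in RPC and from 64.4% to 54.0% in nude pools (58.5% to 49.4% in F1 against nude captures). Under limma-voom the median of all genes was -0.18 in nude, -0.44 in F1 and 0.44 in RPC against spheroid captures and -0.27 in F1 against nude captures, and in pools -1.09, -1.45 and -0.35 in nude against spheroid, F1 against spheroid and F1 against nude. Genes called for spread numbered 0, 72 and 130 in spheroid, nude and F1, as few as 0, 8 and 3 under the alternatives and 25, 385 and 1094 with the group mean as centre; those for differences in spread numbered 0, 45 and 10, as few as 0, 17 and 5 and as many as 185, 797 and 194. H2afx, Hmgb2 and Hmga1 had medians under 50 CPM in all 4 capture groups, and depth limits what can be said of their differences.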
